A study of Mus musculus with 9 samples.

Results

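The genes described here are 42 that act in DNA replication or in mitosis, 18 in the first group and 24 in the second. They were listed by name, with earlier results of these data known. Every probe set whose only gene symbol in the platform annotation was one of the 42 was taken. Of these genes 40 had a probe set on the array, with 71 probe sets between them out of 22690 in all. Of those probe sets 38 belonged to replication genes and 33 to mitotic genes. Cdca8 and Ccnb1 had none with their symbol alone. Where a gene had several, the one with the brightest mean stood for it. After dim genes were set aside, 38 of the 40 were tested, 17 for replication and 21 for mitosis. The others, Tyms and Cenpe, were too dim.

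RNA came from wild-type mouse embryos, from the dissected mid-foregut, the part of the gut tube between the pharyngeal arches and the liver from which the lung buds arise. Embryos were staged by their somites, the paired blocks of trunk mesoderm that are laid down in sequence. The 3 groups were 16-20 somites (embryonic day 8.5), 21-25 somites (day 9.0) and 26-30 somites (day 9.5), none of them treated or mutant, with 3 biological replicates in each. For a replicate, 5 to 10 foreguts were pooled, 100 ng of their RNA went through 2 rounds of amplification, and the product went onto 1 Affymetrix array, so the spread given below is that between pools and their arrays.

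Replication begins when the origin recognition complex, with Cdc6 and Cdt1, loads the ring of Mcm proteins onto DNA. In S phase these rings act as the helicase, primase starts each strand, and the clamp loader places Pcna, the sliding clamp that holds the polymerase on DNA. Mitosis is then driven by Cdk1 with its cyclins, and by the Aurora and Polo-like kinases, while the spindle checkpoint holds back anaphase until every kinetochore is attached. Replication genes peak around the start of S phase under E2F factors and the RB family, and mitotic genes peak in G2 and mitosis under the MuvB complex with B-Myb and FOXM1. Transcripts of both groups are therefore widely used as a readout of how many cells in a growing tissue are cycling. The pools were whole tissue, so fewer cycling cells and less RNA per cell cannot be told apart.

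Promoter sequence was looked at first, because the groups are known for different promoter elements. RefSeq (mouse GRCm38.p6) gave a window from 250 bases before to 50 bases after the annotated start for 36 of the 42 genes, 16 for replication and 20 for mitosis. An E2F element was searched as TTTCCCGC, TTTCGCGC, TTTGCCGC or TTTGGCGC, the cell cycle genes homology region (CHR), which MuvB binds, as TTTGAA, and the CCAAT box as CCAAT, all on both strands. The windows of 7 of 16 replication genes held an E2F element (43.8%), those of Cdc6, Cdt1, Mcm3, Mcm5, Mcm6, Mcm7 and Rfc3. Among mitotic genes 1 of 20 did (5%), and the share was 2.61% of 27025 genes in the table and 4.81% of the 7051 genes tested on the array that had a window. The CHR letters ran the other way: 13 of 20 mitotic windows held them (65%), against 1 of 16 replication windows (6.25%), 20.2% of the genes in the table and 14.4% of those tested. CCAAT was found in 16 of 20 mitotic and 10 of 16 replication windows, against 43.0% of the genes tested. Matches on opposite strands can overlap, as in Mcm5 and Mcm6, and a match is a description of the letters, not of binding.

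**Figure D1:**
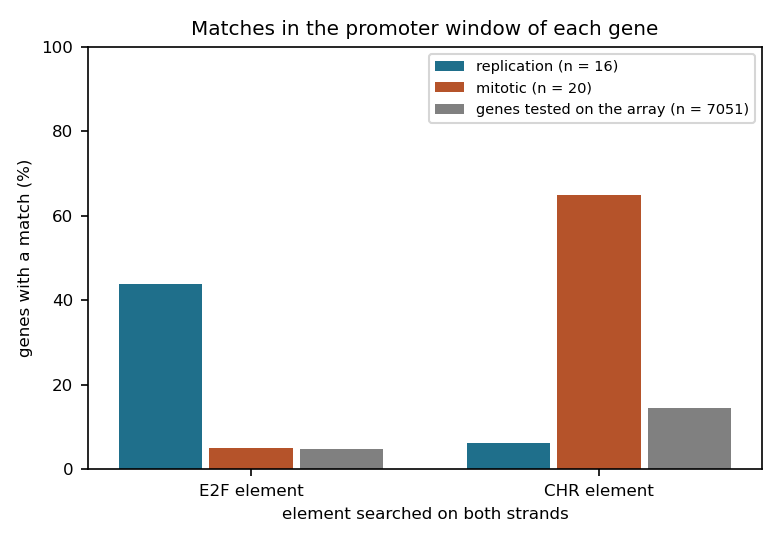
Share of genes (percent) whose RefSeq promoter window held an E2F or a CHR element on either strand, for 16 replication genes, 20 mitotic genes and 7051 genes tested on the array; bars start at 0. The replication bar stands at 43.8% for the E2F element and the mitotic bar at 65% for the CHR.

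The 150 bases just before the start are given for 5 genes, 5′ to 3′ on the strand of the gene, with matches to any of the elements in capitals (ATTGG is CCAAT on the other strand). Rfc3 (chr5:151651209-151651358, minus strand) and Mcm6 (chr1:128359706-128359855, minus strand) show the E2F element. Cdk1 (chr10:69352913-69353062, minus strand) was the only gene of the 36 with both an E2F element and a CHR. Cdc20 (chr4:118437344-118437493, minus strand) shows a CHR close to a CCAAT box. Birc5 (chr11:117849087-117849236, plus strand) is shown because its signal differed most between stages, and none of the letters searched lay in its window.
Rfc3: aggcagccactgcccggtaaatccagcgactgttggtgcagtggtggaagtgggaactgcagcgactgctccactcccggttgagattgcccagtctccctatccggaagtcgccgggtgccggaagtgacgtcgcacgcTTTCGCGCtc
Mcm6: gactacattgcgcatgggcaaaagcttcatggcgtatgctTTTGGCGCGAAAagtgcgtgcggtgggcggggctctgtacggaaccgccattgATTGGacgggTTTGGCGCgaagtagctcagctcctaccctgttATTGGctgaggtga
Cdk1: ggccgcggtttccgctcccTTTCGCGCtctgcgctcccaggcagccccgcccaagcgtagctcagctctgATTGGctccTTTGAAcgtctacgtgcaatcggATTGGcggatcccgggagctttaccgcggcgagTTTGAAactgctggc
Cdc20: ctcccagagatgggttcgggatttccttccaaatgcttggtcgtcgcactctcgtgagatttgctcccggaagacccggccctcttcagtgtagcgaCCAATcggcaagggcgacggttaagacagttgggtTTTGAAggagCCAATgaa
Birc5: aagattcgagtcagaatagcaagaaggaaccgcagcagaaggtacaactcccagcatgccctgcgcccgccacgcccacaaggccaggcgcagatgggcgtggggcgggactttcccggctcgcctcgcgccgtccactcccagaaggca

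An E2F element of Rfc3 lay at -10 to -3, counted back from the start, and a second match, on the opposite strand and past the start, at 1 to 8. Mcm6 held matches at -110 to -103 and, on the opposite strand and overlapping it, at -106 to -99, with another at -47 to -40. The E2F element of Cdk1 lay at -131 to -124 and its CHR matches at -71 to -66 and -15 to -10. The CHR of Cdc20 lay at -18 to -13.

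On the arrays as a whole, the mean of each array after trimming lay at 500.2 to 500.3, as after scaling to a common target. The highest signal was 27479.8 to 32584 on 3 arrays (21-25 somites replicate 1, and 26-30 somites replicates 1 and 2) and 43792 to 61749 on the other 6. On 21-25 somites replicate 2 the ratio of 3' to 5' actin probe sets, which rises as RNA is shortened, was 45.3, against 20.9 to 36.8 elsewhere. The ratio for Gapdh was 36.4 on that array and was highest on 26-30 somites replicate 3, at 40.9, against 16.0 to 26.0 on the other 7. Of the foregut endoderm markers 8 of 10 were above the filter, led by Krt8, but Nkx2-1 and Shh were below it, and of the mesenchyme markers 7 of 10 were, led by Pdgfra, without Foxf1, Tbx4 and Osr1. On 16-20 somites replicate 2 the summed signal of hepatic markers was 33317, against 2265 and 4117 on the other pools of that stage, and that of cardiac markers 18192, against 3186 and 4069. Of 114 member differences (38 genes in 3 comparisons), 26 moved by more than their standard error without the 3 arrays of low highest signal, 4 without 16-20 somites replicate 2 and 14 without 21-25 somites replicate 2. Several of these moves are given beside the genes. Wherever the 3 arrays of low highest signal are left out, 26-30 somites rest on replicate 3 alone, the array with the highest Gapdh ratio.

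No replication or mitotic gene passed the test at any stage. In limma with Benjamini-Hochberg adjustment at 0.05, 0 of 8675 genes were called in each comparison (0%), in the test of any difference between the 3 stages and in the test of whether the steps differed. The number at an unadjusted p under 0.05 was 960 between 16-20 and 21-25 somites, 353 between 21-25 and 26-30 somites, and 967 over the whole interval from 16-20 to 26-30 somites. It was 847 for any difference and 548 for the difference between the steps. Differences are therefore given below with their standard error, on the log2 scale of the signal plus a pseudocount of 26.2, which understates those of dim genes.

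The member that stood farthest apart was Birc5, lower by 1.18 over the whole interval, and Rfc3 followed, lower by 0.73. At an unadjusted p under 0.05, 1 of the 38 tested members was higher at 21-25 than at 16-20 somites (Aurkb, 2.63%, against 5.68% of all tested genes) and 4 were lower (Rfc3, Tk1, Birc5 and Cdk1, 10.5% against 5.38%). In the next step 0 were higher (2.02% of all genes) and 1 was lower (Mki67, 2.63% against 2.05%). Over the whole interval 0 were higher (6.29% of all genes) and 3 were lower (Rfc3, Prim1 and Birc5, 7.89% against 4.85%). A single gene is 2.63% of the 38, so these shares lie within a few genes of the background.

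**Figure D2:**
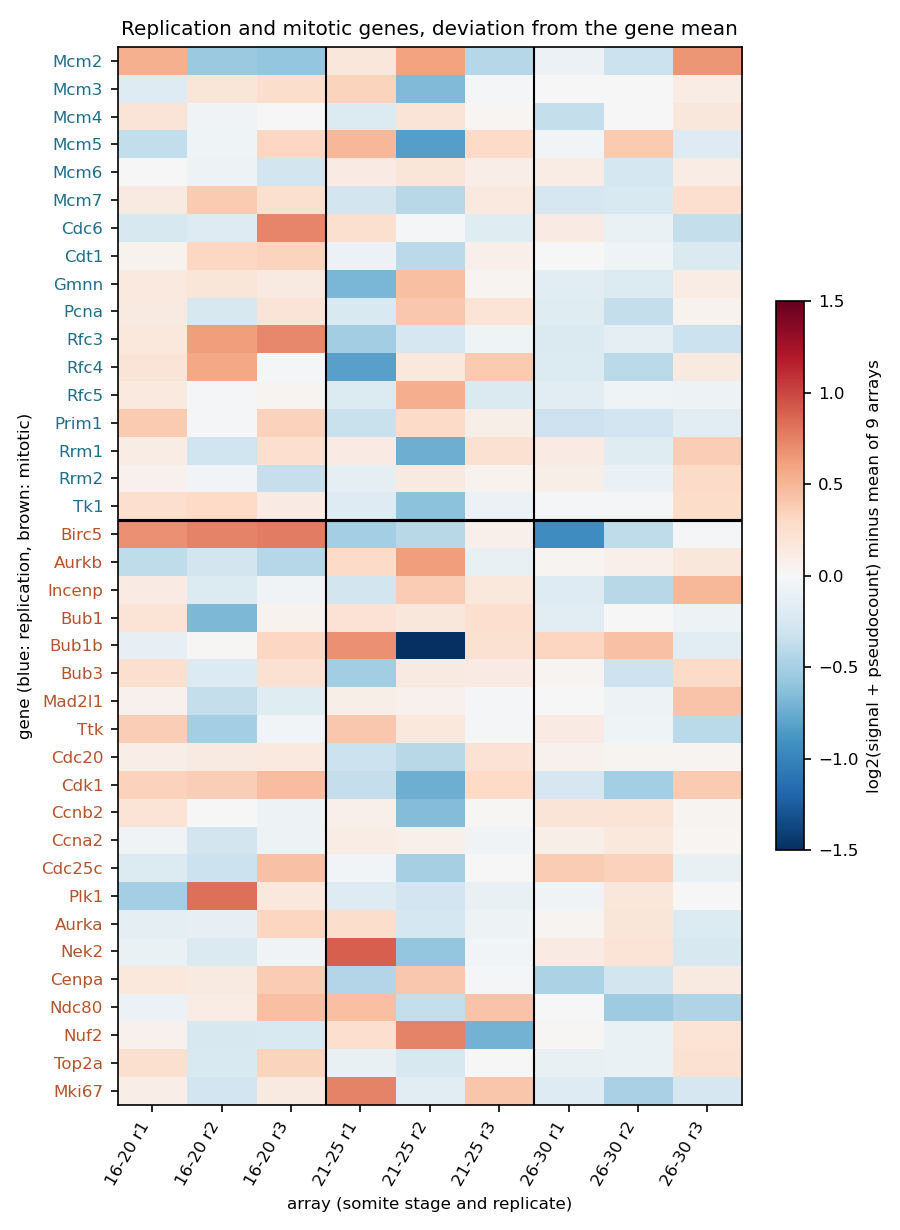
Deviation of each of the 38 tested genes from its own mean over the 9 arrays (log2 of signal plus pseudocount, colour scale from -1.5 to 1.5), in rows by role, with replication genes above the line and mitotic genes below it, and arrays in columns by stage. Birc5 is high on the 3 arrays of 16-20 somites, and Bub1b is lowest on 21-25 somites replicate 2.

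A simpler description asks whether the 3 arrays of 26-30 somites lay wholly to one side of the 3 arrays of 16-20 somites. They lay wholly above for Aurkb and Ccna2 (5.26% of members, against 11.2% of all tested genes). They lay wholly below for Cdt1, Gmnn, Rfc3, Rfc5, Prim1, Birc5 and Cdc20 (18.4%, against 10.2%). Of these 7 genes 5 were among the 17 tested replication genes, and Birc5 and Cdc20 among the 21 mitotic ones. Gmnn, Rfc5 and Cdc20 differed by less than their standard error. Dimmer probe sets of Cdt1, Prim1 and Cdc20 above the filter overlapped between these stages, while the dimmer one of Rfc3 also lay wholly below.

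The Mcm2 to Mcm7 proteins form the hexameric replicative helicase. Their median difference over the whole interval was 0.03, and 3 of the 6 were positive. With the probe sets used, Mcm7 had the widest difference of the 6. Its signal was 10724, 12899 and 11521 at 16-20 somites, 8077, 7321 and 10832 at 21-25, and 8236, 8351 and 11695 at 26-30. It was lower by 0.44 ± 0.23 (SE) in the first step and by 0.33 ± 0.23 over the interval (adjusted p in limma 0.496 and 0.589), and the stages overlapped over the interval. Mcm2 spread most within a stage, with 2669, 1234 and 1216 at 16-20 somites, 2059, 2807 and 1357 at 21-25, and 1723, 1457 and 2919.8 at 26-30. Its interval for the whole difference ran from -0.52 to 1.09, the widest of the 6, so that a doubling could not be told from no difference. Without the 3 arrays of low highest signal, which leaves replicate 3 alone at 26-30 somites, the difference of Mcm2 was 0.87.

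Mcm3, Mcm4, Mcm5 and Mcm6 differed by -0.05, -0.11, 0.10 and 0.11 over the interval, each by less than its standard error. Without 21-25 somites replicate 2 the first steps of Mcm3 and Mcm5 went from -0.20 to 0.075 and from 0.03 to 0.44. Another Mcm4 probe set, nearly as bright, differed by 0.49 ± 0.23 over the interval. A dim Mcm3 probe set above the filter differed by 0.72 ± 0.30, and the other Mcm3 probe sets above it by 0.29 and 0.06. Mcm6 gave 4126, 3918 and 3399 at 16-20 somites, 4518, 4690.1 and 4435 at 21-25, and 4468, 3448 and 4456 at 26-30. Its 21-25 arrays lay above all 3 earlier ones, with a difference of 0.26 ± 0.20, but the 26-30 arrays overlapped both. Mcm5 gave 569.5, 712 and 927 at 16-20 somites, 1061, 408 and 917 at 21-25, and 724, 985 and 649 at 26-30, with both its highest and its lowest array at 21-25 somites. Mcm4 ran from 3143 to 4633 over all 9 arrays and Mcm3 from 1498 to 3021.

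The licensing genes were lower at 26-30 than at 16-20 somites in 3 of 3, with a median of -0.24, and none passed the test. Cdt1 brings the helicase to origins. Its signal was 8119, 9678 and 9858 at 16-20 somites, 7335, 5886 and 8233 at 21-25, and 7788, 7449.6 and 6730.0 at 26-30. The 26-30 arrays lay below all 3 of the earliest, and the difference was -0.33 ± 0.21 (adjusted p in limma 0.551). A dimmer Cdt1 probe set differed by only -0.10 over the interval and by 0.05 in the first step, and the mean of the Cdt1 probe sets by -0.090. Gmnn encodes geminin, which binds Cdt1 and blocks a second licensing in the same cycle. It gave 3913, 4013 and 3896 at 16-20 somites, 2198, 4869.9 and 3664 at 21-25, and 3144, 3062 and 3836 at 26-30. The earliest arrays lay close together and the 21-25 arrays spread on both sides of them, and the whole difference was -0.24 ± 0.27. Cdc6, the loader that works with the origin recognition complex, gave 1037, 1077 and 2059.7 at 16-20 somites, 1456, 1205 and 1086 at 21-25, and 1347, 1152 and 954 at 26-30. Its difference was -0.21 ± 0.28, and 1 array of the first stage, at 2059.7, lay above the other 8.

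The clamp, its loader and primase were the role group with the lowest replication median, -0.40 over the interval, and 5 of 5 were negative. By array, the median deviation of the group was lowest on the 3 arrays of low highest signal, at -0.34, -0.20 and -0.29. Without them, with 1 array left at 26-30 somites, Rfc3 differed by -0.83 and Prim1 by -0.40. Rfc5, Rfc4 and Pcna then differed by -0.13, -0.11 and 0.02. Rfc3 encodes a subunit of replication factor C, the loader of Pcna. Its signal was 382, 537 and 576 at 16-20 somites, 227, 280.0 and 323 at 21-25, and 288, 303 and 265 at 26-30. All 6 later arrays lay below the 3 earliest. The mean was 498 ± 103 (SD, n = 3) at first, then 277 ± 48.0 and 285 ± 19.2. The difference was -0.78 ± 0.23 in the first step (unadjusted p in limma 0.00499, adjusted 0.317) and 0.05 ± 0.23 in the second, which gave -0.73 ± 0.23 over the interval (adjusted 0.346). A dimmer probe set of Rfc3 differed by -0.32, -0.26 and -0.58, the same sign over the interval and in the first step but not in the second. With array weights in limma, which count arrays by how well they fit the model, Rfc3 passed over the interval (-0.79, adjusted p 0.0248), in a setting that called 731 genes, 8.43% of those tested; under the other alternatives it did not pass. Leaving out any 1 array gave -0.90 to -0.62, and the adjusted p ran from 0.0248 to 0.999 over all alternatives.

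Prim1 encodes the catalytic subunit of primase. Its signal was 3159, 2372 and 3067 at 16-20 somites, 1901, 2948 and 2563 at 21-25, and 1930.4, 1966 and 2146 at 26-30. The last stage lay below the first without overlap, by 0.49 ± 0.23 (unadjusted p in limma 0.0488, adjusted 0.444), while 21-25 somites spanned both. The other Prim1 probe set differed by 0.05, so the gene's probe sets did not share a sign over the interval. Rfc4 gave 2665, 3492 and 2300.4, then 1314, 2600.3 and 3075, then 2031, 1762 and 2568, a whole difference of -0.40 ± 0.31 with overlapping stages. Rfc5 gave 2116, 1876 and 1958, then 1648, 2793 and 1631, then 1699, 1823 and 1809.8. Its last stage lay just below its first, by 0.15 ± 0.24. Pcna, the clamp, gave 13009, 10020.1 and 13519, then 10036, 15672 and 13616, then 10437, 9199 and 12248, and differed by -0.19 ± 0.23.

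The genes of nucleotide supply had a median of 0.08 over the interval, for the 3 that were tested. Tk1 encodes thymidine kinase, the salvage enzyme for thymidine. It gave 585, 604 and 532 at 16-20 somites, 422, 308 and 456 at 21-25, and 482, 480.0 and 598 at 26-30. The middle stage lay below both others without overlap, and the first and last overlapped. The first step was -0.52 ± 0.22 and the second 0.38 ± 0.22, and the difference between the steps was 0.91 ± 0.38 (unadjusted p in limma 0.0335, adjusted 0.760). Without 21-25 somites replicate 2 the first step of Tk1 was -0.37. Rrm1 and Rrm2, the subunits of ribonucleotide reductase, differed by 0.08 ± 0.28 and 0.19 ± 0.21 over the interval. Dimmer Rrm2 probe sets above the filter differed by -0.29 and -0.10, and the mean of the Rrm2 probe sets by -0.07. A dimmer Rrm1 probe set differed by -0.04. With the probe sets used, the signals were as follows. Rrm1 gave 4614, 3466 and 5074, then 4630.1, 2553 and 5009, then 4642, 3743 and 5496, and Rrm2 stayed between 7912 and 12205. Tyms, thymidylate synthase, had 3 probe sets, all of them under the filter, and the brightest read 6.7 to 32.7.

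**Figure D3:**
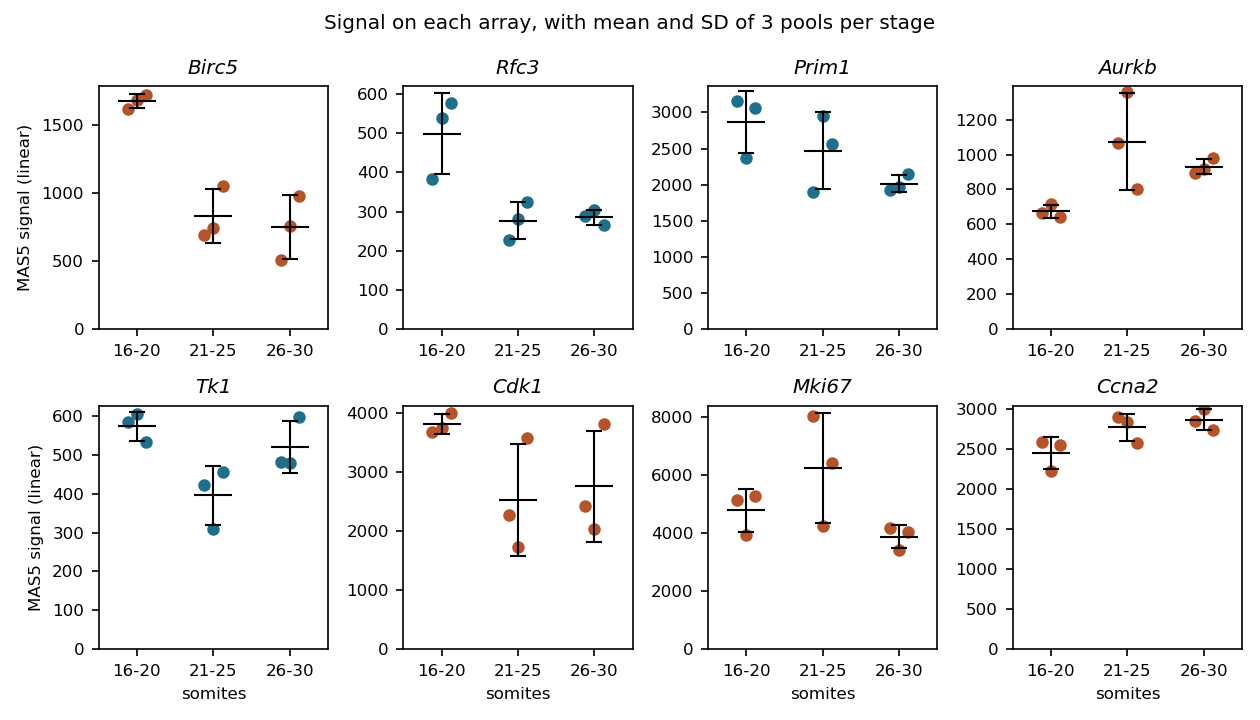
MAS5 signal (linear, axes from 0) of 8 genes on each array, with the mean and SD of the 3 pools of each stage; blue marks replication genes and brown mitotic genes. Birc5 lies at 1618 to 1720 on the arrays of 16-20 somites and at or below 1055 on the other 6, and Aurkb at 641 to 717 and then at or above 801.

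In the chromosomal passenger complex, which sits at the inner centromere and later at the midzone, the signals of Birc5 and Aurkb lay in opposite directions. Birc5 encodes survivin, the subunit that brings the complex to the centromere. Its signal was 1618, 1685 and 1719.5 at 16-20 somites, 692, 742 and 1055 at 21-25, and 509.5, 757 and 978 at 26-30. Every later array lay below every array of the first stage. The mean was 1674 ± 51.4 (SD, n = 3), then 829.6 ± 197 and 748 ± 234, so the spread between pools was narrow before and wide after. The first step was -1.01 ± 0.26 (unadjusted p in limma 0.00214, adjusted 0.317), the second -0.17 ± 0.26, and the whole difference -1.18 ± 0.26 (adjusted 0.281), with an interval from -1.75 to -0.61. It was the only member past 1 on the log2 scale over the interval (2.63% of members, against 3.01% of tested genes). Birc5 had 1 probe set, so no second one bears on it.

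The arrays that stood apart bore on Birc5 as follows. Without the 3 arrays of low highest signal, which leaves a lone array at 26-30 somites whose spread is taken from the other stages, the whole difference was -0.76 (adjusted p in limma 0.999). Leaving out any 1 array gave -1.39 to -0.94. With array weights in limma it was -1.43 and passed (adjusted p 0.0120), in a setting that called 731 genes, 8.43% of those tested. The weights at 26-30 somites were 3.38 for replicate 1 (signal 509.5), 1.34 for replicate 2 (757) and 0.67 for replicate 3 (978). Under the other alternatives Birc5 did not pass. Without 16-20 somites replicate 2, the pool with high hepatic and cardiac sums, the whole difference was -1.18.

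Aurkb encodes Aurora B, the kinase of the same complex. It gave 665, 717 and 641 at 16-20 somites, 1066, 1356 and 801 at 21-25, and 897, 916 and 978 at 26-30. All later arrays lay above all of the first stage, the opposite of Birc5. The first step was 0.62 ± 0.23 (unadjusted p in limma 0.0171, adjusted 0.374) and the whole difference 0.45 ± 0.23 (adjusted 0.469). Without 21-25 somites replicate 2 the first step was 0.44. Its other probe set differed by 0.44 and -0.36 in the steps and by 0.08 over the interval, and its stages overlapped. Incenp, the scaffold, gave 15479.9, 12366 and 13808, then 11753, 18602 and 15866, then 12439, 10700.1 and 20082, with a whole difference of 0.01 ± 0.27, and of 0.54 without the 3 arrays of low highest signal. A far dimmer Incenp probe set above the filter, at 69 to 382, differed by -0.78 in the first step and -0.25 over the interval. Another, just under the filter, differed by -0.95 and -0.44. The mean of the Incenp probe sets differed by -0.53 and -0.23. The fourth subunit, borealin (Cdca8), had no probe set. For the probe sets used here, the whole differences of the 3 measured subunits thus spanned -1.18 to 0.45.

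The spindle checkpoint genes centred on 0 over the interval, with a median of 0.00 and 3 of 6 positive. Bub1 and Ttk are kinases that start checkpoint signalling at unattached kinetochores. Bub1 gave 2216, 1186 and 1992 at 16-20 somites, 2235, 2152 and 2279 at 21-25, and 1716, 1912 and 1813 at 26-30. Its first step was 0.35 ± 0.24 and its second -0.29 ± 0.24, with 1 low array in the first stage, replicate 2, without which the first step of Bub1 was 0.079. A dimmer Bub1 probe set differed by 0.38 and 0.32 in the steps and by 0.70 ± 0.32 over the interval. Ttk ran from 460.4 to 891 and differed by -0.05 ± 0.26. Bub1b encodes BubR1, part of the inhibitor of the anaphase-promoting complex. It gave 855, 940.2 and 1167, then 1511, 266 and 1098, then 1176, 1271 and 827, and had the widest ratio of highest to lowest array of the tested members, 5.68. Both extremes were pools of the middle stage, and its whole difference was 0.13 ± 0.48. Without 21-25 somites replicate 2 the first step of Bub1b turned from -0.34 to 0.39.

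Mad2l1, the other checkpoint effector, gave 4059.5, 3023 and 3397, then 4111, 4036 and 3822, then 3854, 3653 and 5205, a difference of 0.27 ± 0.21 with overlapping stages, and of 0.58 without those 3 arrays. Bub3, which holds the kinases at kinetochores, ran from 5881 to 10335 and differed by -0.08 ± 0.25. A dimmer Bub3 probe set above the filter differed by 0.33 ± 0.22, and the mean of the Bub3 probe sets by 0.06. Cdc20 is the activator of the anaphase-promoting complex and the target of the checkpoint. It gave 7579, 7782 and 7802, then 5659.5, 5284 and 8209, then 7407, 7281 and 7274. The last stage lay just below the first without overlap, yet the difference was only -0.08 ± 0.21, and the middle stage spread on both sides of them. A dimmer Cdc20 probe set above the filter differed by -0.04, and its first and last stages overlapped. Another, below the filter, differed by 0.64, and the mean of the Cdc20 probe sets by 0.18.

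Among the cyclins and their kinase, Cdk1 was lower after the first stage on most arrays and Ccna2 slightly higher. Cdk1 is the kinase that triggers entry into mitosis. It gave 3679, 3740.0 and 3994 at 16-20 somites, 2266, 1730.1 and 3578 at 21-25, and 2424, 2025 and 3806 at 26-30. The first stage was tight, and replicate 3 of each later stage stayed near its level while the other 4 arrays lay well below. The first step was -0.65 ± 0.30 (unadjusted p in limma 0.0476, adjusted 0.449) and the whole difference -0.51 ± 0.30 (adjusted 0.518). Of the 4 low arrays 3 were those of low highest signal and the fourth was 21-25 somites replicate 2. Without those 3, which leaves replicate 3 alone at 26-30 somites, the whole difference of Cdk1 was 0.0015. The first step of Cdk1 was -0.41 without 21-25 somites replicate 2 and -0.28 with array weights.

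Ccna2 encodes cyclin A2, the partner of the kinases in S phase and G2. It gave 2587, 2226 and 2553, then 2908, 2834 and 2582, then 2856, 3004 and 2740.0. It had the narrowest ratio of highest to lowest array among the members, 1.35, and the last stage lay above the first by 0.22 ± 0.19. Its other probe set differed by -0.03. Ccnb2, a B-type cyclin, gave 1428, 1248 and 1168, then 1302, 779 and 1249, then 1418, 1435 and 1269.6, a difference of 0.10 ± 0.23. Cdc25c, the phosphatase that activates Cdk1, ran from 281 to 561 and differed by 0.23 ± 0.27.

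The centrosome and mitotic kinases had whole differences of -0.13 ± 0.29 for Plk1, -0.01 ± 0.23 for Aurka and 0.15 ± 0.32 for Nek2. Plk1, which acts from mitotic entry to cytokinesis, gave 474, 1236 and 769.9 at 16-20 somites, 595, 557 and 630.1 at 21-25, and 656, 771 and 685 at 26-30. Its first stage held both the highest and the lowest array. Without the highest, 16-20 somites replicate 2, the whole difference of Plk1 was 0.21, of the other sign. Nek2, a kinase of centrosome separation, gave 310.4, 284 and 322, then 642, 215 and 322, then 366, 388 and 277. Aurka, the Aurora kinase of the spindle poles, ran from 798 to 1208.

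At the kinetochore, Cenpa, the histone variant that marks the centromere, gave 2495, 2452 and 2919.8, then 1642, 2969 and 2211, then 1601, 1842 and 2454, a difference of -0.43 ± 0.26 (adjusted p in limma 0.534), which was -0.09 without the 3 arrays of low highest signal. Ndc80 binds microtubules. It gave 572, 660.0 and 839.6, then 844, 469.7 and 831, then 606, 412 and 439, with a second step of -0.51 ± 0.27 and a whole difference of -0.49 ± 0.27 (adjusted 0.511). Nuf2, its direct partner in the Ndc80 complex, gave 445, 354 and 359, then 508, 730.5 and 249, then 431, 395 and 492, a difference of 0.18 ± 0.32. In all 3 genes the stages overlapped over the interval, and the Ndc80 and Nuf2 intervals overlapped too, from -1.08 to 0.11 and from -0.52 to 0.87. Cenpe, the kinetochore motor, read 17.1 to 59.7 and was not tested.

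Top2a, the topoisomerase that untangles sister chromosomes, gave 11218, 8075 and 12002, then 8768, 8051 and 9467, then 8754, 8877 and 11123, a difference of -0.11 ± 0.22. Mki67 encodes the Ki-67 antigen, the usual histological mark of cycling cells. It gave 5139.6, 3924 and 5276 at 16-20 somites, 8052, 4254 and 6428 at 21-25, and 4183, 3425 and 4021 at 26-30. The last stage lay below the middle one without overlap, though 4183 and 4254 were close, and the first stage overlapped both. The second step was -0.64 ± 0.25 (unadjusted p in limma 0.0264, adjusted 0.998), and the whole difference was -0.29 ± 0.25. The difference between the steps was -0.99 ± 0.44 (adjusted 0.782). Tk1 and Mki67 were the members with an unadjusted p under 0.05 for that difference (5.26%, against 6.32% of all tested genes), with opposite signs: 0.91 and -0.99. Rfc3, Birc5 and Aurkb were those with one for any difference between the 3 stages (7.89%, against 9.76%). Neither share lay above the background. Without the 3 arrays of low highest signal the second step of Mki67 was -0.38.

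**Figure D4:**
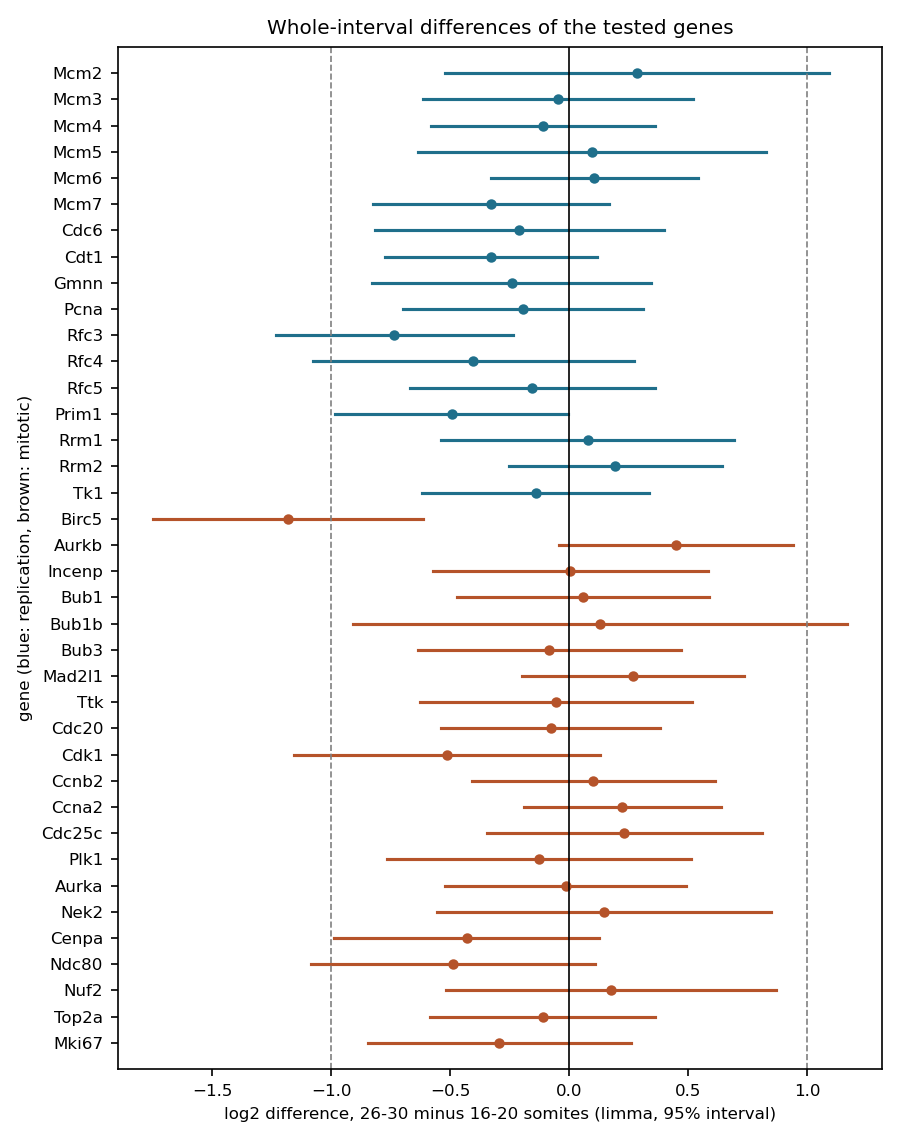
Difference between 26-30 and 16-20 somites (log2, limma) with its 95% interval for each of the 38 tested genes, replication in blue and mitotic in brown; dashed lines mark -1 and 1. Birc5 at -1.18 is the only point beyond a dashed line, and 31 of 38 intervals lie between them.

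How large a difference the data leave room for can be read from the intervals. Over the whole interval 31 of the 38 members (81.6%) had a 95% interval within 1 on the log2 scale of 0 on either side, against 65.8% of all tested genes. For 28 of the 38 members this held in all 3 comparisons, and for 4534 of the 8675 tested genes. The median spread within stages was 0.31 for members, 0.26 for replication genes and 0.32 for mitotic genes, against 0.33 for all tested genes.

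Replication genes were then set against mitotic genes. In the first step the median difference was -0.15 for the 17 replication genes and -0.04 for the 21 mitotic genes, against 0.00 for all 8675 tested genes. In the second it was -0.03 and 0.03, against 0.01. Over the whole interval it was -0.15, with 5 of 17 replication genes positive, and -0.01, with 10 of 21 mitotic genes positive. Of all tested genes 4410 of 8675 were positive, with a median of 0.01. The first-step medians rested partly on 21-25 somites replicate 1: without it they were -0.048 and -0.12, and the replication median minus the mitotic one turned from -0.11 to 0.071.

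By array, the median deviation of replication genes from their own means was 0.14, -0.02 and 0.20 at 16-20 somites, -0.20, 0.13 and 0.05 at 21-25, and -0.09, -0.15 and 0.11 at 26-30. That of mitotic genes was 0.10, -0.21 and 0.14, then 0.09, -0.24 and 0.00, then 0.02, -0.06 and 0.03. The replication median minus the mitotic one was 0.04, 0.19 and 0.05 at 16-20 somites, -0.28, 0.37 and 0.05 at 21-25, and -0.11, -0.09 and 0.08 at 26-30. The widest gaps, of opposite sign, thus belonged to pools of the same stage, and the stages overlapped. Without the 3 arrays of low highest signal the whole replication median was 0.0017 and its distance from the mitotic median 0.087, of the other sign.

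**Figure D5:**
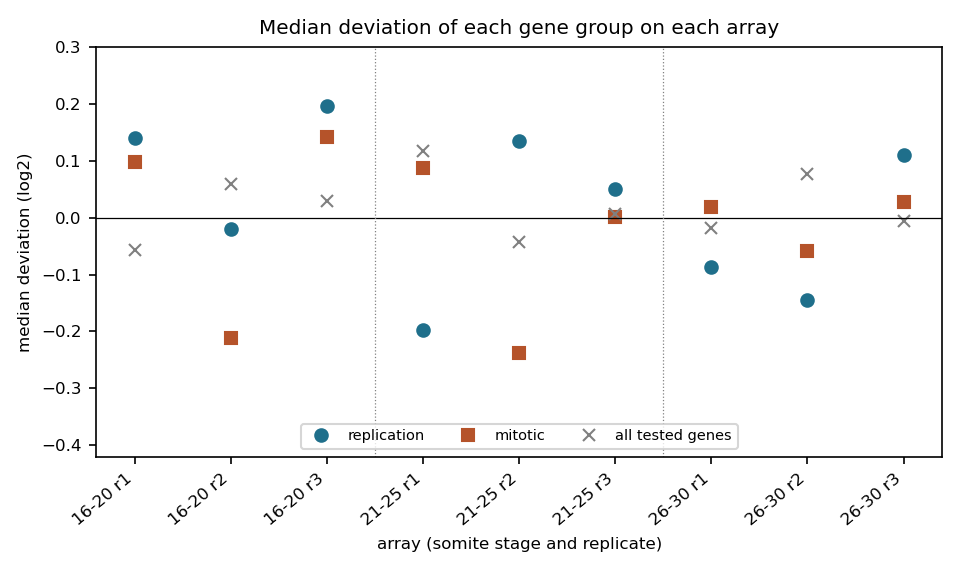
Median deviation (log2) of the 17 replication genes, the 21 mitotic genes and all 8675 tested genes on each of the 9 arrays, grouped by stage. Replication and mitotic medians are farthest apart on 21-25 somites replicates 1 and 2, by -0.28 and 0.37, and no stage holds its points apart from the others.

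A single array carried many of the lowest signals. On 21-25 somites replicate 2, with the highest actin ratio and the next to highest Gapdh ratio, 6 of 17 replication genes (35.3%) and 8 of 21 mitotic genes (38.1%) had their lowest signal, against 21.1% of all tested genes. Among them were Mcm3, Mcm5, Mcm7, Cdt1, Rrm1 and Tk1, and Bub1b, Cdc20, Cdk1, Ccnb2, Cdc25c, Aurka, Nek2 and Top2a. The same array gave the highest signal for Mcm6, Gmnn, Pcna, Rfc5, Aurkb, Cenpa and Nuf2. These were 23.5% of the tested replication genes and 14.3% of the mitotic ones, against 14.8% of all tested genes. Whether the state of this RNA bears on these genes was not tested.

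Probe sets of one gene parted there too. In the 17 genes with several probe sets above the filter, the median gap between the deviations of their probe sets on that array was 0.57, against 0.15 to 0.38 on the others, and the largest gap was 1.92, for Incenp. For Mcm2, the probe set used read 2807 on that array, its second highest value, while the other Mcm2 probe set read 460 there, its lowest. A second Mcm7 probe set fell to 234 on it, against 842 to 1742 on the other arrays. Over the whole interval the probe sets of 9 of the 17 genes did not share a sign: Bub3, Ccna2, Incenp, Mcm3, Mcm4, Mcm7, Prim1, Rrm1 and Rrm2. Small differences of single members therefore depend on which probe set stands for the gene.

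Wider lists of the same machinery gave medians of -0.15 to 0.06 in the first step and over the interval. Of 40 other replication genes, among them origin recognition, GINS, polymerase and single-strand binding genes, 36 were tested, with a median of -0.15 in the first step and -0.08 over the interval. In each of these, 14 of 36 were positive, against 50.2% and 50.8% of all tested genes. In the first step 2 were higher at an unadjusted p under 0.05 (5.68% of all tested genes were) and 4 were lower (5.38% of all). At an unadjusted p under 0.05 over the interval, 2 were higher (6.29% of all tested genes were) and 1 was lower (4.85% of all), and 0 passed after adjustment. Dck, the deoxycytidine kinase of nucleotide salvage, was higher (1.11 ± 0.35), and Rpa2, a single-strand binding subunit, was lower (-0.83 ± 0.27). Cdc7, the kinase that fires origins, gave 1428, 948 and 1346 at 16-20 somites, 3070.4, 2157 and 1940 at 21-25, and 1579, 1769 and 1463 at 26-30. Its middle stage lay above both others, by 0.92 ± 0.24 in the first step (adjusted p in limma 0.317). Of 53 other mitosis genes 43 were tested, with medians of 0.06 in the first step and -0.00 over the interval, and 1 was higher and 1 lower over the interval at an unadjusted p under 0.05. These were Ect2, a regulator of cytokinesis (0.61 ± 0.24), and Spc25, a subunit of the Ndc80 complex (-0.72 ± 0.27).

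For the factors that control transcription of these genes, most differences were positive. Of 19 E2F, RB family, MuvB and FOXM1 genes 12 were tested. Their median was 0.40 in the first step, with 9 of 12 positive, and 0.37 over the interval, with 10 of 12 positive. At an unadjusted p under 0.05, 5 were higher in the first step (5.68% of all tested genes were) and 4 over the interval (6.29% of all), with 0 lower in either, and 0 passed after adjustment. By array, their median deviation was -0.26, -0.25 and -0.28 at 16-20 somites, 0.27, -0.10 and 0.04 at 21-25, and 0.06, 0.23 and 0.10 at 26-30, so every later array lay above the 3 earliest. E2f8, an atypical E2F that represses targets of the family, gave 778, 588 and 623, then 1450.1, 1153 and 1096, then 1494, 1803.5 and 841. Its whole difference was 0.97 ± 0.28 (adjusted p in limma 0.333). E2f5, which works with the RB family relatives as a repressor, differed by 0.79 ± 0.25, and Lin9, a MuvB subunit with signals from 63.1 to 347, by 0.97 ± 0.35. The list was compared with the members only by these medians.

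Of 16 inhibitors of the cycle and genes of cycle exit, 12 were tested. Over the interval their median was 0.20, with 8 of 12 positive, and at an unadjusted p under 0.05, 4 were higher (6.29% of all tested genes were) and 1 was lower (4.85% of all). Of all tested genes 50.8% were positive. Ccng2, an atypical cyclin linked to cell cycle arrest, gave 1399.8, 764 and 1328, then 2252, 2046 and 1509.9, then 2054, 2651 and 2020.9, a whole difference of 0.97 ± 0.27 (adjusted p in limma 0.327). Its later arrays all lay above the earliest. Cdkn1a, the p21 inhibitor of cyclin-dependent kinases, gave 360.5, 324 and 308, then 319, 347 and 296, then 439, 454 and 562. Its last stage lay above all 6 earlier arrays, by 0.51 ± 0.20 over the interval (adjusted 0.391). Ccng1, a p53 target, differed by 0.60 ± 0.26.

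Marker sums of other tissues differed between pools and stages as well. The cardiac markers had a median difference of -0.75 over the interval (8 of 8 negative) and the tested hepatic markers one of -1.04 (4 of 4 negative). Their sums on 16-20 somites replicate 2 were the highest of the 9 arrays, as given above. By array, the median deviation of cardiac markers was -0.60, 1.74 and 0.01 at 16-20 somites and 0.15, -0.99 and -0.55 at 26-30. That of hepatic markers was -0.44, 2.11 and 0.06, and then -0.45, -0.36 and -0.78. Both differences thus rest in part on that 1 pool. The summed signal of the mesenchyme markers was 4154 to 4430 at 16-20 somites, 4504 to 7230 at 21-25 and 6029.6 to 7984 at 26-30, so that the last stage lay above the first. That of endoderm markers was 10121 to 16914, 8981 to 10152 and 9531 to 10666. The erythroid sum ran from 18006 on 21-25 somites replicate 1 to 57560 on 26-30 somites replicate 3, led by Hbb-y, and 6 of 7 erythroid markers were above the filter. The endothelial sum ran from 729.9 to 1773, led by Kdr, and the neural sum from 421 to 999.8, led by Sox10, with Pecam1, Tie1, Tubb3, Elavl3 and Olig2 below the filter. The part of these tissues in the differences of single members was not tested.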

How the data were processed

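RNA of 9 pools of mouse mid-foregut was measured on 1 Affymetrix array each. The deposited intensity values are linear and are MAS5 signals of the authors, as the submitters' processing notes name that tool. The sources used here do not give its version, scaling target or detection calls. They were used as deposited. The table held 22690 probe sets, 64 of them controls; the platform annotation gave 1 symbol for 20380, several for 691 and none for 1555, and 20351 matched RefSeq, which changed 0 symbols. Probe sets with several symbols or none were left out, which left 12393 genes.

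Values were taken to log2 after adding 26.2, the 20th percentile. Genes were tested where their mean log2 was at or above 6.66, the 30th percentile over genes (8675 genes). A model with 1 mean per stage was fitted over the 9 arrays with limma 3.58.1 in R 4.3.3 (lmFit, eBayes with a trend), two-sided, with Benjamini-Hochberg adjustment at 0.05 over all tested genes; the same fit gave the difference between the steps and the F test for any difference. The step was tested on simulated data. No 2 arrays held identical values. The number of arrays limits the precision.

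The members, lists, alternatives and tests were chosen with earlier results of these data known. All members may be named; of each other list, the 3 genes with the smallest p in the F test, and of each marker list its brightest gene. The main fit did not pair pools by replicate number. Of 9 same-numbered pairs across stages, correlations of deviations ran from -0.28 to 0.26 and 3 were over 0.1. Those of differently numbered pairs ran from -0.52 to 0.44. Deviations within a stage constrain each other, so these correlations cannot settle whether pools were paired. Alternatives changed the normalization, pseudocount, filter, variance trend, array weights, replicate block, probe set rule and the arrays fitted.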

Additional observations from a re-analysis of the deposited data

How the results depend on the processing

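Of 2508 differences of single members under 22 alternatives, 2339 kept their sign, 161 changed sign where the value lay within 1 SE of 0, and 8 farther out reversed. Rfc4 in the first step was 0.065 with array weights and 0.026 without the 3 arrays of low highest signal, and -0.58 to 0.026 when 1 array was left out, the last without 21-25 somites replicate 1. In the second step Prim1 was 0.0011 and Bub1 0.013 when probe sets of a gene were averaged, and Cdc20 was -0.038 with array weights. Over the whole interval Mcm7 was 0.0017 and Cdk1 0.0015 without those 3 arrays.

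Array weights called 29 genes in the second step, 731 over the interval and 339 in the test of any difference, where equal weights on all 9 arrays called 0; 2 members, Birc5 and Rfc3, were among the 731. Without the 3 arrays of low highest signal 1 gene was called in the first step, the whole median of replication genes was 0.0017, and the replication median minus the mitotic one was 0.087. With only the 6 arrays compared, 4 genes were called over the interval. Leaving out 1 array gave 0 to 3 called in the first step, 0 to 1 over the interval, 0 to 2 for any difference, 0 to 3 for the difference between the steps, and first-step medians of -0.12 to 0.11 for mitotic and -0.24 to -0.048 for replication genes. The cause was not tested. Genes at an unadjusted p under 0.05 over the interval numbered 967, but 2414 with array weights, 281 without the 3 arrays, and 600, 499 and 486 without 16-20 somites replicate 2 and 26-30 somites replicates 1 and 2. In the second step the number was 353, but 1533 with array weights, 147 without the 3 arrays, and 782, 193 and 225 without 21-25 somites replicate 1 and 26-30 somites replicates 1 and 2. In the first step it was 512 rather than 960 without the 3 arrays and 589 without 16-20 somites replicate 2. With the replicate block 0 genes were called in each comparison, and 2 members instead of 3 were at an unadjusted p under 0.05 over the interval. Prim1 over the interval was -0.22 with the mean of its probe sets.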
